A study of Mus musculus with 48 samples.

Results

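Mouse oncostatin M (mOSM) was compared with human oncostatin M (hOSM) and leukaemia inhibitory factor (mLIF in the titles) in calvarial osteoblasts from Osmr KO mice, which lack the OSM receptor chain. The 18 arrays of this comparison are those of a 48-array series that hold Osmr KO cells given mOSM, hOSM or mLIF. At 1 h and again at 6 h, 3 arrays of mOSM were set against 6 of the other ligands (3 of hOSM and 3 of mLIF). Arrays were matched by replicate number. Every culture was of C57BL/6 background, was frozen as primary cells from the skull cap, was thawed and differentiated for 17 days in medium with ascorbate, and received ligand at 10 ng/ml. Osmr KO arrays without ligand (6, 3 at each time) and the 24 arrays of Osmr WT cultures treated in the same way serve as references. The design text speaks of 3 thaw occasions and the labels give 2 thaw days. The source of the LIF is mouse in the titles and human in the treatment notes. The labels do not say which animals gave the 3 replicates. Below, a culture means the arrays of 1 genotype that share a replicate number. That these arrays came from the same cells is taken from the number alone. Unless culture is left out of the fit, a p-value between ligands reflects the scatter left after group and culture levels are removed. That scatter is pooled over all 48 arrays and may be technical.

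Cytokines of the gp130 family signal by bringing the shared chain gp130, encoded by Il6st, together with a second receptor chain, after which JAK kinases activate STAT3 and the ERK pathway. LIF uses the LIF receptor chain (LIFR). Mouse OSM binds above all the OSM receptor chain (OSMR), whereas human OSM acts on mouse cells through LIFR. The cultures without OSMR therefore ask how much of a LIFR response mouse OSM can still evoke, which is the question the design text poses for this ligand. In osteoblasts OSM is known for raising RANKL, the osteoclast-forming factor encoded by Tnfsf11, and for lowering sclerostin.

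Osmr itself served as the check of the genotype labels. Its level, on the log2 scale of normalised probe brightness used throughout, was 7.36 ± 0.74 (SD, n = 24) in Osmr KO arrays, from 6.28 to 8.75, and 10.68 ± 0.80 (SD, n = 24) in Osmr WT arrays, from 9.51 to 12.23. The genotypes did not overlap. The difference was -3.32 ± 0.16 (SE; limma, Benjamini-Hochberg adjusted p = 4.18e-17), and the remaining signal was above background on all 24 Osmr KO arrays. Lifr, the receptor chain that all 3 ligands could still use, lay between 6.64 and 8.22 on the 18 arrays and did not pass the test between mOSM and the other ligands (0.04 ± 0.19, SE, at 1 h; -0.34 ± 0.19 at 6 h). The labels call the cells osteocytes. Of 14 osteoblast genes 8 were above background on all 18 arrays, among them Col1a1, Sparc and Sp7, while Dlx5 and Msx2 were above it on 0, Phospho1 on 1 and Smpd3 on 9. Of 12 osteocyte genes 6 were above background on all 18 arrays (Ank, Cd44, Fam20c, Irx5, Pdpn, Phex), while the late markers Sost and Fgf23 and the Wnt inhibitor Dkk1 were above it on 0, Mepe and Ackr3 on 2 and Dmp1 on 5.

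The upstream sequences of 4 genes whose levels carry the comparison are printed here because each holds a match to a motif linked to this pathway, and they were picked after their values were seen. Capitals mark the motif. It is the STAT-binding GAS motif TTCNNNGAA for Socs3 and Irf1, and the core of the interferon-stimulated response element (ISRE; GAAA, any 2 bases, then GAAA, which reads TTTC, any 2 bases, then TTTC on the other strand) for Isg15 and Gbp3, where overlapping matches run together. Each is the 160 bases before a listed start site, 5′ to 3′ on the gene's strand, from RefSeq on build GRCm38.p6. Irf1 and Gbp3 have 2 listed start sites each. For them the first site with a match in the 250 bases before it was taken. Socs3 lies at chr11:117969367-117969526 on the minus strand and Irf1 at chr11:53769854-53770013 on the plus strand. Isg15 lies at chr4:156200819-156200978 on the minus strand and Gbp3 at chr3:142559884-142560043 on the plus strand.
Socs3: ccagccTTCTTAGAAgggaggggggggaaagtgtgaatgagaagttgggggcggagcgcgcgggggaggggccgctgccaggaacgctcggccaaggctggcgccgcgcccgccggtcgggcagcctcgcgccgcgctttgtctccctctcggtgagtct
Irf1: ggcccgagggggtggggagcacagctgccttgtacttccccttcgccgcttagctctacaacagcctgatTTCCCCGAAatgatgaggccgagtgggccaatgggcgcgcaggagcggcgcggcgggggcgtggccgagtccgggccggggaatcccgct
Isg15: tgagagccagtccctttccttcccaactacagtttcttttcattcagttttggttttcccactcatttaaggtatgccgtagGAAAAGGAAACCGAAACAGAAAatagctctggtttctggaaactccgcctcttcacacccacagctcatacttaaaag
Gbp3: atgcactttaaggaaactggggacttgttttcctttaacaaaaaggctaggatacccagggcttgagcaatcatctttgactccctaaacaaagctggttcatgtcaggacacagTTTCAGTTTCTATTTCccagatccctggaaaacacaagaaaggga

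At 1 h, genes that the LIFR ligands had raised stood lower with mOSM. Of 10739 genes tested, 93 (0.866%) passed an adjusted p of 0.05, of which 74 (0.689%) were lower and 19 (0.177%) higher with mOSM. The median difference of the 74 was -1.31 on the log2 scale, and 58 of them (0.54% of all genes) differed by over 2-fold. Taken singly, 70 genes passed against hOSM (0.652%) and 60 against mLIF (0.559%). Between hOSM and mLIF 0 genes (0%) passed (limma; 176 at an unadjusted p of 0.05, and 0 when culture was left out of the fit). Scaling each array on its median in place of the authors' normalisation moved the median of all genes from 0.02 to -0.10 and the share of higher calls from 20.4% (19 of 93) to 5.45% (6 of 110), so the split between directions depends on the scaling, while the lower genes stood at 104. Leaving culture out of the fit lowered the count to 33, of which 30 were lower and 3 higher, and leaving out the replicate 1 culture lowered it to 45.

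Feedback inhibitors of the JAK-STAT pathway were lower with mOSM, and Socs3 was also higher than in control. Socs3, the inhibitor of gp130 signalling, read 12.49, 12.49 and 13.23 with mOSM. With hOSM it read 14.55, 14.40 and 14.01, with mLIF 14.38, 14.22 and 14.07, and in untreated cultures 9.85, 10.27 and 10.52. Every mOSM value lay above every control and below every value of the other ligands. Over all genes tested, 118 (1.1%) had every mOSM array below every LIFR ligand array at 1 h, and 102 (0.95%) had every one above. Socs3 was lower with mOSM by 2.9-fold (-1.54 ± 0.27, SE; adjusted p = 0.000594), and its rise over control with mOSM was 2.52 ± 0.31 (SE; adjusted p = 2.63e-05). It was the 1 gene (0.00931% of those tested; 272 at an unadjusted p of 0.05) that passed for mOSM against control at 1 h, where 122 (1.14%) passed for hOSM and 124 (1.15%) for mLIF against the same control arrays. Its lower level with mOSM did not pass without the replicate 1 culture or without the replicate 2 culture. The second inhibitor, Socs1, stood at 4.68, 5.89 and 6.23 with mOSM, above background on 2 of the 3 arrays, and between 7.68 and 8.31 with the other ligands (-2.45 ± 0.24, SE; adjusted p = 3.99e-08; -2.13 with the dim array raised to the dimmest level above background). Against untreated cultures, at 5.08 to 5.76, Socs1 with mOSM was lower on 1 array and slightly higher on the others, and its difference from control, 0.27 ± 0.28, did not pass. Cish, which restrains STAT5, read 10.09, 10.12 and 11.26 with mOSM against 11.38 to 12.39 with the other ligands (-1.49 ± 0.29, SE; adjusted p = 0.00295; 1.38 ± 0.34 over control, adjusted p = 0.589; the former not passing without the replicate 1 culture or without either of the replicate 1 and replicate 2 mOSM arrays).

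**Figure D1:**
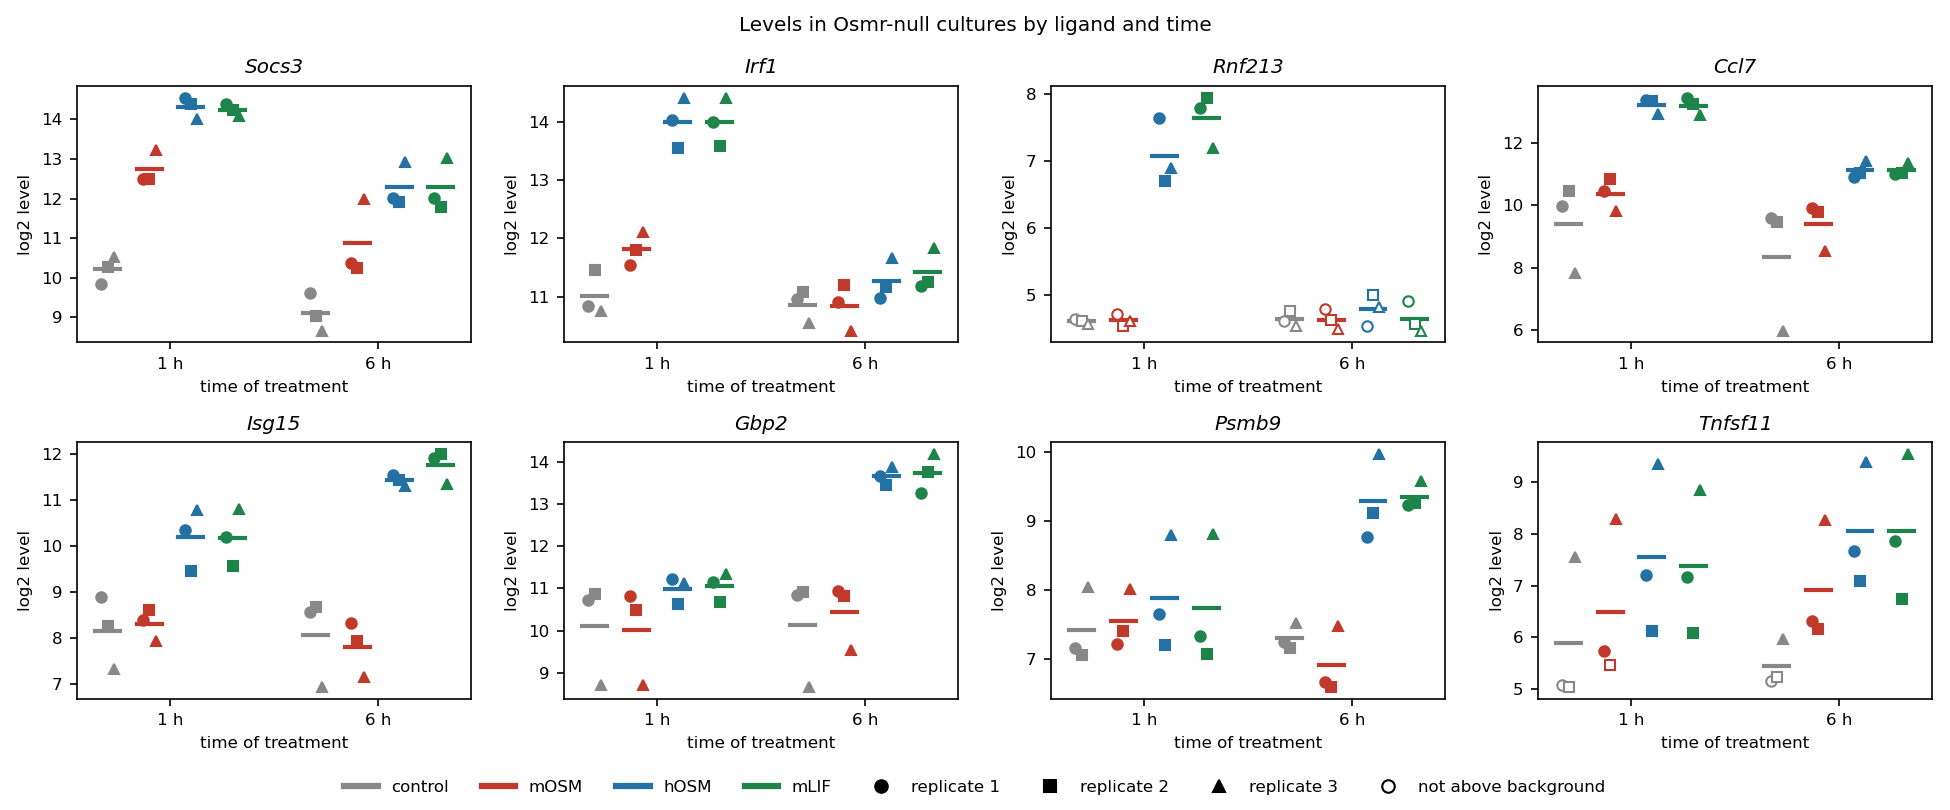
Log2 levels of 8 genes on the 24 Osmr KO arrays, by ligand (colour) and time; points are arrays, marker shapes replicate cultures, open points are not above background, and lines are group means of 3. With hOSM and mLIF, Socs3 and Irf1 were raised at 1 h and Isg15 and Gbp2 at 6 h; the mOSM arrays lie near the controls for most genes and between controls and LIFR ligands for Socs3.

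Irf1, a transcription factor that drives interferon-response genes, read 11.54, 11.80 and 12.11 with mOSM, 14.03, 13.55 and 14.41 with hOSM, 14.01, 13.58 and 14.42 with mLIF, and 10.85, 11.45 and 10.75 in controls. The mOSM arrays lay just above the controls and far below the other ligands. Irf1 was lower with mOSM by 4.54-fold (-2.18 ± 0.21, SE; adjusted p = 3.43e-08), and its difference from control, 0.80 ± 0.24, did not pass (adjusted p = 1). Pim3, a survival kinase, was lower too (-1.53 ± 0.20, SE; adjusted p = 1.18e-05). In all, 5 of the 17 tested STAT3 targets and feedback genes were lower (Cish, Irf1, Pim3, Socs1, Socs3), beside 0.689% of all genes. In this list 0 were higher and 12 did not pass, with a median of -0.53 beside 0.02 over all genes. Dropping 1 Osmr KO culture gave 3 to 7 lower genes in the list. Cebpb, Bcl3, Junb and Stat3 were among the 12, at -0.26 ± 0.13, -0.61 ± 0.29, -1.25 ± 0.35 and -0.19 ± 0.16 (SE).

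Interferon-inducible genes formed the second group. Rnf213, an interferon-inducible ubiquitin ligase, read 4.72, 4.54 and 4.60 with mOSM, all not well above background, and 6.70 to 7.94 with the other ligands, all above it. No array with mOSM overlapped the others. The measured difference was -2.74 ± 0.21 (SE; adjusted p = 2.36e-10), and the gene was at least 3.22-fold lower, a bound that counts each dim value as at least as bright as the dimmest probe above background on its array. Mx2, an antiviral GTPase, read 5.41, 5.37 and 5.25 with mOSM, again not well above background, against 7.30 to 9.52 (at least 7.43-fold lower; adjusted p = 1.18e-05). Trim35, a ubiquitin ligase, read 7.26, 7.42 and 7.08 against 9.15 to 9.79 (-2.20 ± 0.26, SE; adjusted p = 1.51e-06; 2 of its 3 other probes did not pass, at -0.37 and -0.67). Mx2 and Trim35 are not in the list of interferon-inducible genes counted here. Of 24 tested interferon-inducible genes 8 were lower, beside 0.689% of all genes, none higher and 16 did not pass (list median -0.83). The count was 2 with culture left out of the fit, 14 with a beadchip term added, and 5 without the replicate 1 culture. Isg15 and Ifi47 are examples of genes that needed the culture term: their adjusted p-values were 0.000564 and 1.86e-05 with it, and 0.489 and 0.163 without it.

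Chemokines and secreted signals followed. Ccl7, a monocyte attractant, read 10.44, 10.86 and 9.83 with mOSM and 12.88 to 13.44 with the other ligands, while its controls read 9.97, 10.45 and 7.82. The mOSM values lay near the controls in replicates 1 and 2 and above the control in replicate 3, and did not overlap those of the LIFR ligands (-2.82 ± 0.40, SE; adjusted p = 1.99e-05). Ccl2, a related monocyte attractant, read 6.38, 6.55 and 6.64 against 8.65 to 9.96 (-2.71 ± 0.44, SE; adjusted p = 0.00025). Of 19 tested chemokines and inflammatory mediators 7 were lower (Ccl11, Ccl2, Ccl7, Cxcl1, Cxcl10, Cxcl9, Nfkbiz), beside 0.689% of all genes, and none higher. Cxcl10 did not pass without the replicate 1 culture, without the replicate 3 culture or without their mOSM arrays, nor with culture left out (adjusted p = 0.108), and its other probe gave -0.69 and did not pass. Hgf, hepatocyte growth factor, chosen after its values were seen, shows what the matching does: it read 9.14, 8.71 and 6.95 with mOSM, 10.82, 10.18 and 7.98 with hOSM and 11.04, 10.06 and 8.49 with mLIF. The replicate 3 culture was low for every ligand, so that the ligand groups overlap, yet within cultures Hgf was lower by -1.79, -1.40 and -1.29 (-1.49 ± 0.16, SE; adjusted p = 2.93e-07; 1 with culture left out). Of its other 2 probes 1 gave -1.50 and passed and 1 gave -0.08 and did not.

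Pde4b, a phosphodiesterase that degrades cAMP, had one of the widest gaps among genes that were bright in every group. It read 8.01, 7.89 and 8.42 with mOSM, 10.69 to 11.75 with the other ligands and 6.82, 7.24 and 6.81 in controls. The mOSM arrays lay above all controls and below all arrays of the LIFR ligands. The difference was -3.05 ± 0.41 (SE; adjusted p = 1.34e-05; -1.52 on its other probe, not passing), and the rise over control, 1.15 ± 0.47, did not pass (adjusted p = 1). The metallothionein Mt1, which binds zinc, was lower (-1.22 ± 0.18, SE; adjusted p = 4.7e-05), as were the aggrecanase Adamts4 (-1.72 ± 0.22, SE; adjusted p = 7.12e-06) and the lipopolysaccharide co-receptor Cd14 (-1.55 ± 0.20, SE; adjusted p = 5.78e-06). Among 28 immediate early genes only Dusp5, Egr2 and Zfp36 were lower, beside 0.689% of all genes, and none was higher. Egr2 and Zfp36 did not pass without the replicate 1 or the replicate 2 culture or with culture left out, Egr2 also not without any 1 mOSM array, and Dusp5 not without the replicate 1 mOSM array. Fos and Egr1 gave -1.63 ± 0.48 and -0.43 ± 0.26 (SE) and did not pass.

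Genes that the LIFR ligands lowered were among those higher with mOSM at 1 h. Over all genes tested, 0.177% were higher. Id1, a BMP target that blocks differentiation factors, read 10.32, 10.65 and 11.12 with mOSM, 8.92, 9.12 and 10.13 with hOSM, and 8.87, 9.13 and 10.02 with mLIF, beside 10.57, 10.75 and 11.61 in controls. The mOSM values were above all 6 others and within or just below the control range. Id1 was 2.52-fold higher (1.33 ± 0.20, SE; adjusted p = 6.1e-05) and was the 1 of 17 tested BMP and TGF-beta pathway genes to pass. Slc38a2, an amino acid transporter, read 12.51, 12.06 and 11.69 with mOSM and 10.22 to 10.90 with the others (1.44 ± 0.22, SE; adjusted p = 8.2e-05). Its 2 other probes gave 0.18 and 0.23 and did not pass, so that the Slc38a2 difference rests on 1 probe. Id1 and Slc38a2 also passed under median scaling. Rasl11b, a small GTPase, was higher by 1.32 ± 0.16 (SE; adjusted p = 2.74e-06; 0.0961 with culture left out). Genes of osteoblasts (11 tested), osteocytes (8), the Wnt pathway (16), fat cells (11), hypoxia and glycolysis (12) and the cell cycle (13) gave 0 calls at 1 h. Over all genes 0.866% passed, so 0 calls in lists this small does not set them apart.

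**Figure D2:**
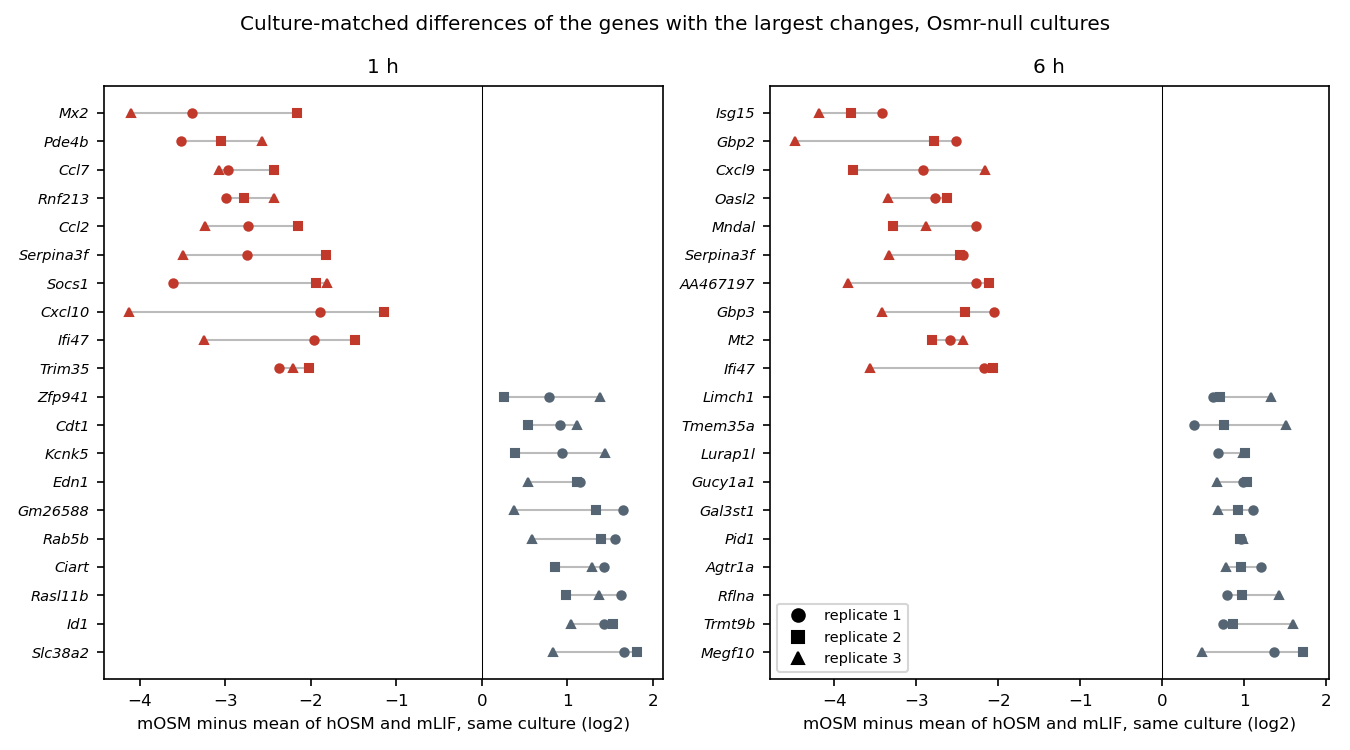
Differences between mOSM and the mean of hOSM and mLIF within each Osmr KO culture (log2) for the 10 genes with the largest decreases (red) and increases (grey) at each time; each marker shape is 1 of 3 cultures and the line spans them. All 3 cultures lie on the same side of 0 for each gene, which the choice of genes required.

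At 6 h the comparison widened, and interferon-response genes led it. The test called 387 genes (3.6%), of which 237 (2.21%) were lower and 150 (1.4%) higher with mOSM. The lower genes had a median of -0.83 and 86 of them differed by over 2-fold, whereas the higher genes had a median of 0.52 and 3 differed by over 2-fold. Taken singly, 179 passed against hOSM (1.67%) and 250 against mLIF (2.33%). Between hOSM and mLIF 0 genes passed again (limma; 264 at an unadjusted p of 0.05, and 0 when culture was left out of the fit). Under median scaling 222 were lower and 8 higher, and the share of higher calls fell from 38.8% to 3.48%. With culture left out of the fit 48 genes passed, 44 lower and 4 higher, and all 48 were among the 387. Leaving out the replicate 1 culture gave 177 and leaving out the replicate 2 culture 133.

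Isg15, a ubiquitin-like antiviral protein, had the widest difference. It read 8.31, 7.92 and 7.14 with mOSM, 11.54, 11.44 and 11.29 with hOSM, 11.91, 12.00 and 11.35 with mLIF, and 8.56, 8.66 and 6.93 in controls. The mOSM arrays sat among the controls, far below both LIFR ligands. Isg15 was 13.9-fold lower with mOSM (-3.80 ± 0.33, SE; adjusted p = 1.76e-09). The guanylate-binding protein Gbp2, an interferon-induced GTPase, read 10.94, 10.81 and 9.55 with mOSM against 13.26 to 14.18 (-3.26 ± 0.40, SE; adjusted p = 1.5e-06). Its relative Gbp3, whose upstream sequence is printed above, read 8.72, 8.64 and 8.41 with mOSM against 10.65 to 11.90 (-2.62 ± 0.23, SE; adjusted p = 1.78e-09). Neither gene's mOSM values overlapped those of the LIFR ligands. Over all genes tested, 205 (1.91%) had every mOSM array below every LIFR ligand array at 6 h, and 165 (1.54%) had every one above.

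Of the 24 tested interferon-inducible genes 16 were lower, beside 2.21% of all genes. In this list 0 were higher and 8 did not pass, with a median of -1.36 beside 0.02 over all genes. The 16 were Bst2, Gbp2, Gbp3, Ifi205, Ifi47, Ifit3, Igtp, Irf7, Irf9, Irgm2, Isg15, Oasl2, Psmb8, Psmb9, Stat2 and Tap1. The count was 7 with culture left out, and 12 to 13 when any 1 Osmr KO culture was dropped. Oasl2, a relative of the oligoadenylate synthetases, read 8.44, 8.68 and 6.40 with mOSM, 11.03, 11.28 and 9.61 with hOSM and 11.37, 11.33 and 9.86 with mLIF. Its replicate 3 culture ran about as far below the others with every ligand (-2.91 ± 0.25, SE; adjusted p = 1.76e-09; 0.0882 with culture left out). Mndal, an interferon-inducible DNA-binding protein outside that list, read 5.88, 5.58 and 4.60 against 7.40 to 9.34 (-2.81 ± 0.27, SE; adjusted p = 6.4e-09).

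The 3 catalytic subunits of the immunoproteasome, the form of the proteasome that cuts peptides for class I antigen presentation, were lower together. They were singled out after their values were seen. Psmb9 read 6.66, 6.60 and 7.48 with mOSM, 8.76, 9.12 and 9.97 with hOSM, 9.22, 9.26 and 9.57 with mLIF and 7.25, 7.16 and 7.52 in controls. All mOSM values were at or under the top of the control range, and none reached the LIFR ligands. Psmb9 was 5.29-fold lower (-2.40 ± 0.18, SE; adjusted p = 5.46e-11), Psmb8 3.61-fold (-1.85 ± 0.17, SE; adjusted p = 3.15e-09) and Psmb10 2.34-fold (-1.22 ± 0.13, SE; adjusted p = 7.83e-08).

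Chemokine and acute phase genes were lower as well. Cxcl9, a T cell attractant, read 5.39, 4.95 and 4.77 with mOSM, not well above background, against 6.67 to 8.95 (at least 5.01-fold lower; adjusted p = 2.52e-09). The protease inhibitor Serpina3n read 10.03, 10.76 and 10.47 with mOSM and 11.89 to 12.83 with the other ligands, beside 9.82, 10.38 and 7.57 in controls (-1.94 ± 0.35, SE; adjusted p = 0.000701). The metallothionein Mt2 read 6.24, 6.21 and 8.52 with mOSM, 8.34, 8.72 and 10.92 with hOSM and 9.30, 9.32 and 10.99 with mLIF (-2.61 ± 0.37, SE; adjusted p = 1.91e-05). Of 15 tested acute phase and complement genes 8 were lower (Hp, Lbp, Lcn2, Mt1, Mt2, Serpina3f, Serpina3n, Timp1). Of 19 chemokines and mediators 7 were lower, with none higher in either list, beside 2.21% of all genes lower. Dropping 1 Osmr KO culture gave 5 to 8 for the first list and 2 to 6 for the second. Serpina3f was not well above background on any mOSM array (at least 3.64-fold lower; adjusted p = 0.00023). Serpina3f and Serpina3n belong to a family of closely related copies, as do the Gbp genes, and cross-hybridisation between members was not tested.

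Genes of the receptor complex and of osteoclast control took part. At this time 2.21% of all genes were lower and 1.4% higher. Il6st, which encodes gp130, read 9.65, 10.47 and 9.03 with mOSM, 11.00, 11.44 and 10.11 with hOSM and 11.99, 11.31 and 10.11 with mLIF. It was lower with mOSM in each culture (-1.28 ± 0.23, SE; adjusted p = 0.000495; 0.079 with culture left out), and was the 1 of 6 tested receptor chains to pass. Among 5 tested ligands of the family Ctf1, cardiotrophin 1, was higher (0.44 ± 0.12, SE; adjusted p = 0.0247), a call that was lost under median scaling and when any 1 of the 3 cultures was left out. Tnfsf11 read 6.32, 6.16 and 8.28 with mOSM, 7.67, 7.09 and 9.39 with hOSM, 7.86, 6.74 and 9.55 with mLIF, and 5.16, 5.22 and 5.96 in controls. In each culture mOSM lay between control and the LIFR ligands, while replicate 3 stood above the others throughout. The difference from the LIFR ligands was -1.13 ± 0.25 (SE; adjusted p = 0.00658; 1 with culture left out), and it did not pass without the replicate 1 culture or its mOSM array. Of 14 osteoclast-regulating factors Ccl7, Ccl9 and Tnfsf11 were lower and Sema3a, which restrains osteoclasts, was higher (0.75 ± 0.15, SE; adjusted p = 0.0024; not passing under median scaling, without the replicate 1 or replicate 2 culture, or without the replicate 1 mOSM array). Ccl9 did not pass when any 1 of the 3 cultures was dropped or with culture left out (adjusted p = 1). Tnfrsf11b, the RANKL decoy receptor, gave -0.13 ± 0.23 (SE) and did not pass.

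Against control at 6 h, mOSM passed for 5 genes (0.0466%), all higher, beside 751 (6.99%) for hOSM and 847 (7.89%) for mLIF; the 3 comparisons share the same control arrays. The 5 were Socs3 (1.76 ± 0.31, SE; adjusted p = 0.0275), Bcl3, a co-activator of NF-kappaB (1.83 ± 0.34, SE; adjusted p = 0.0299; at least 2.84-fold higher), Tnfsf11 (1.47 ± 0.29, SE; adjusted p = 0.0459), the chitinase-like gene Chil1 (1.21 ± 0.24, SE; adjusted p = 0.0459) and the inflammatory caspase Casp4 (1.55 ± 0.31, SE; adjusted p = 0.0499). Of the last, mOSM arrays read 6.88, 6.93 and 8.16, controls 5.82, 5.81 and 5.68, and LIFR ligand arrays 8.59 to 9.75. For Casp4 the 3 groups formed separate steps with no overlap on the probe used. Against the LIFR ligands that probe gave -1.69. Another Casp4 probe gave -1.35 and passed, and a further probe gave -0.19 and did not. Without the culture term 0 genes passed, and without the replicate 3 culture 0 passed either (limma; 588 at an unadjusted p of 0.05 with all cultures). Casp4 also failed without replicate 1 or 2, and Bcl3 and Tnfsf11 without replicate 1. Casp4 and Chil1 are named here because the count is small.

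**Figure D3:**
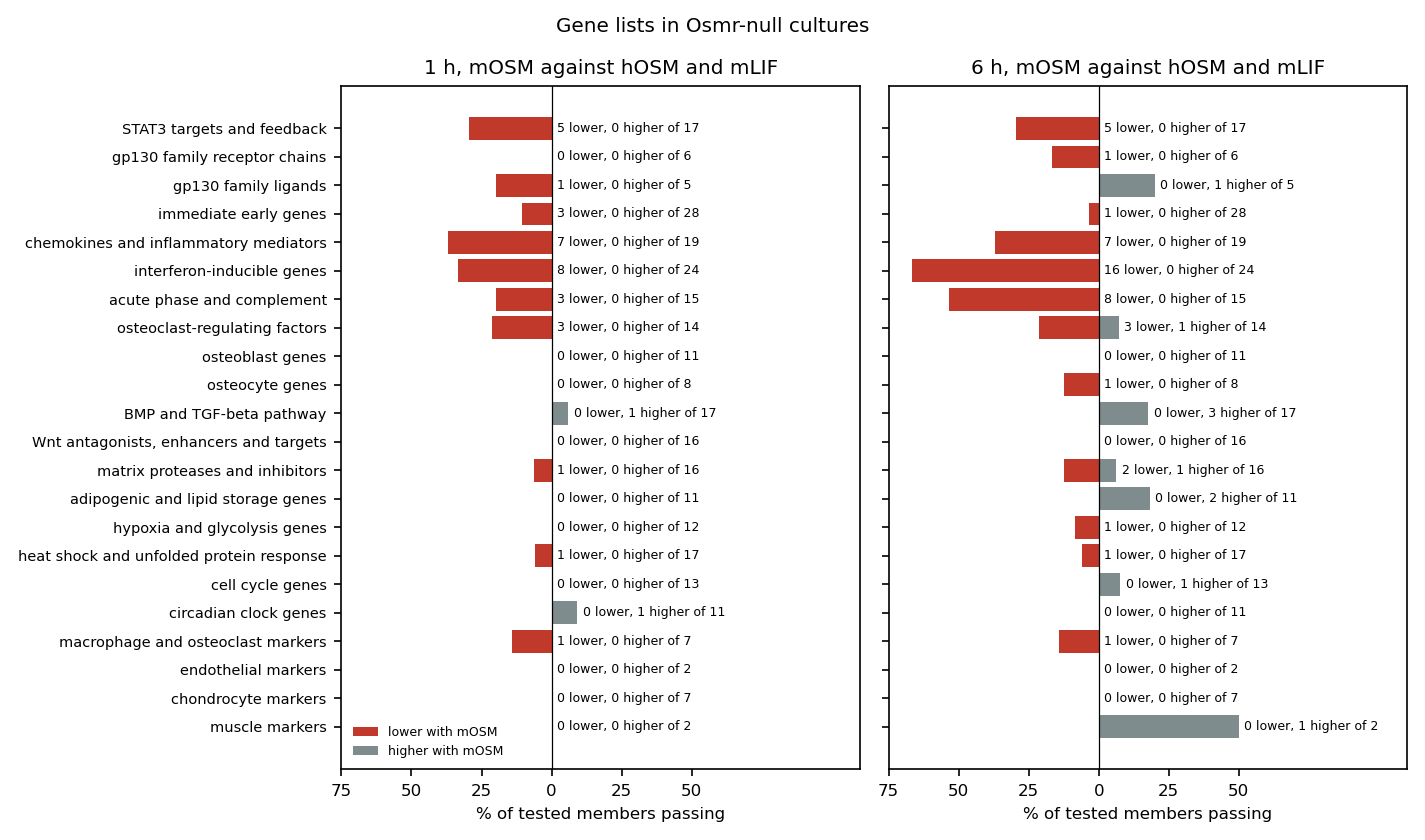
Share of the tested members of each gene list that passed the test between mOSM and the LIFR ligands in Osmr KO cultures at 1 h and 6 h, lower to the left and higher to the right of 0, with counts beside the bars. Interferon-inducible genes reach 16 of 24 lower at 6 h, when 2.21% of all genes were lower. Osteoblast and Wnt genes have 0 calls at both times, when 0.866% (1 h) and 3.6% (6 h) of all genes passed.

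Genes that were higher at 6 h changed by less. Over all genes tested, 1.4% were higher and 2.21% lower at this time. Pid1, a regulator of insulin signalling, read 10.85, 10.26 and 10.37 with mOSM, 9.94, 9.29 and 9.35 with hOSM and 9.85, 9.33 and 9.43 with mLIF (0.96 ± 0.12, SE; adjusted p = 1.62e-06). Its mOSM arrays were above all others given a ligand. Agtr1a, an angiotensin II receptor, read 9.92, 9.86 and 7.44 against 8.66 to 8.97 in the first 2 cultures and 6.59 and 6.75 in the third (0.98 ± 0.12, SE; adjusted p = 2.66e-06; 1 with culture left out). Bmp4, Hey1 and Inhba were higher among 17 BMP and TGF-beta pathway genes, at 0.38 ± 0.11, 0.75 ± 0.13 and 0.71 ± 0.14 (SE), none of which passed under median scaling or with culture left out. Bmp4 also failed without any 1 of the 3 cultures, and Inhba without replicate 2. In the adipogenic list Dgat2 and Lpl, enzymes of fat storage and uptake, were the 2 of 11 that passed, at 0.59 ± 0.17 and 0.44 ± 0.11 (SE), and neither passed under median scaling or without the replicate 1 culture (nor did Dgat2 without replicate 2). Osteoblast genes gave 0 calls of 11, Wnt pathway genes 0 of 16 and clock genes 0 of 11. Over all genes 3.6% passed, so 0 calls or a single call in a list this small does not set it apart. Single members passed in other lists: Ank of the osteocyte genes (-0.34 ± 0.09, SE) and Ldha of the hypoxia and glycolysis genes (-0.30 ± 0.08) were lower, and Cdk1 of the cell cycle genes (0.45 ± 0.13) was higher, and these 3 calls were lost when any 1 of the 3 cultures was dropped. Asns, asparagine synthetase, was the 1 lower of 17 heat shock and unfolded protein response genes (-0.55 ± 0.10, SE; adjusted p = 0.00111; not passing without the replicate 1 culture or with culture left out). Another Asns probe gave -0.57 and passed, and a further probe gave -0.08 and did not. Sp7, Alpl and Col1a1 gave 0.38 ± 0.24, -0.02 ± 0.14 and -0.11 ± 0.13 (SE) at 6 h.

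The genes called at 1 h and at 6 h overlapped in part. Of the 93 genes at 1 h, 29% also passed at 6 h, beside 3.6% of all genes. Of the 387 at 6 h, 6.98% also passed at 1 h, beside 0.866% of all genes. The 27 genes that passed at both times were all lower. They included Socs3, Socs1, Ccl7, Cd14, Mt1, Mt2, Isg15, Ifi47, Gbp3, Hgf and Serpina3f. The change of the difference from 1 h to 6 h, tested in the same fit, passed for 53 genes (0.494%), 22 in the upward and 31 in the downward direction, and for 5 with culture left out. Rnf213 went from its gap at 1 h to values not above background on all 9 ligand arrays at 6 h (change 2.65 ± 0.30, SE; adjusted p = 3.58e-06). Irf1 also closed, with 10.92, 11.19 and 10.42 for mOSM and 10.98 to 11.83 for the others at 6 h (change 1.68 ± 0.30, SE; adjusted p = 0.00191). Oasl2 and Mndal opened on the probes used, by -2.25 ± 0.36 (SE; adjusted p = 0.00044) and -2.56 ± 0.38 (SE; adjusted p = 0.000191). With culture left out, Irf1, Rnf213 and Mndal kept a change past the threshold and Oasl2 did not (adjusted p = 1), nor did Oasl2 without the replicate 2 culture. The direction for Oasl2 depends on the probe: in a fit of every probe, 1 of its other probes gave -1.93 at 1 h (adjusted p = 0.00401) and -0.15 at 6 h, and another -0.44 and -2.11.

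The Osmr WT cultures allowed genes to be chosen on other arrays. In Osmr WT cells hOSM and mLIF raised 175 genes (1.63%) over control at 1 h and lowered 41 (0.382%), and raised 448 (4.17%) and lowered 483 (4.5%) at 6 h. In the Osmr KO cultures the 175 had a median difference between mOSM and the LIFR ligands of -0.76, against 0.02 over all genes; 168 (96%) lay below 0, as did 43.4% of all genes, and 66 (37.7%) were called lower, as were 0.689% of all genes. Their median rise over control in Osmr KO cells was 0.24 with mOSM, 1.02 with hOSM and 1.12 with mLIF, and in Osmr WT cells 1.30 with mOSM. The 41 lowered genes had a median difference of 0.43, with 8 called higher (19.5%, beside 0.177% of all genes). At 6 h the 448 raised genes had a median difference of -0.45, with 175 called lower (39.1%, beside 2.21% of all genes). Their median rises over control in Osmr KO cells were 0.23 with mOSM, 0.70 with hOSM and 0.75 with mLIF. In Osmr WT cells the median rise with mOSM was 1.22. The 483 lowered genes had a median difference of 0.32, with 110 called higher (22.8%, beside 1.4% of all genes). The raised sets, 1.63% and 4.17% of all genes, held 89.2% of the genes called lower at 1 h and 73.8% of those called lower at 6 h. The 3 ligands share their control arrays, so their medians are given side by side without a test.

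**Figure D4:**
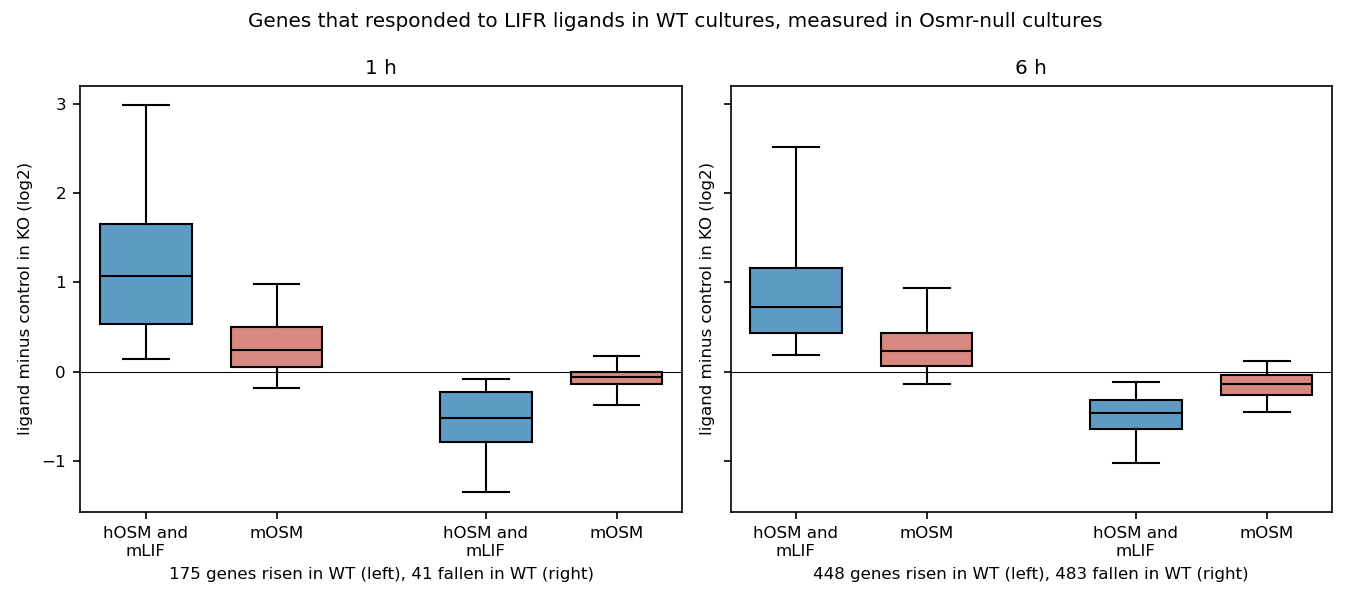
Change over control (log2) in Osmr KO cultures of genes that hOSM and mLIF together had raised or lowered in Osmr WT cultures, for the LIFR ligands (blue, mean of both) and mOSM (red); boxes span the quartiles with the median, and whiskers the 5th to 95th percentile of genes. For the 175 genes raised at 1 h the mOSM median is 0.24, and for the 448 raised at 6 h it is 0.23, both nearer 0 than the LIFR ligands.

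In Osmr WT cells, which have OSMR, many genes had the opposite order of ligands at 6 h. There mOSM differed from the LIFR ligands for 5 genes (0.0466%) at 1 h and for 4085 (38%) at 6 h, of which 1555 were higher and 2530 lower with mOSM. The difference between genotypes passed for 63 genes (0.587%) at 1 h, 52 of them in the downward direction, and for 3636 (33.9%) at 6 h; leaving culture out gave 19 and 1801. Under median scaling the upward share at 6 h was 54.9% in place of 61.1%. At 1 h, 45 of the 74 genes lower in Osmr KO cultures (60.8%) passed this test, and at 6 h 217 of 237 (91.6%) did. These genes were chosen by the same Osmr KO difference that enters the test, so the choice itself raised both shares. Of those 237 genes 130 were called higher with mOSM in Osmr WT cultures, 6 lower, and 101 did not pass there.

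Mcoln2, a lysosomal ion channel, showed this opposite order. In Osmr KO cultures at 6 h it read 4.73, 4.93 and 7.00 with mOSM, 6.32, 7.17 and 8.88 with hOSM and 6.62, 7.08 and 8.79 with mLIF. In Osmr WT cultures it read 10.80, 10.76 and 10.62 with mOSM, 7.16, 7.40 and 6.98 with hOSM and 7.45, 7.47 and 6.66 with mLIF. Its mOSM value was above background on 1 of the 3 Osmr KO arrays, so the Osmr KO difference is inexact (-1.42 with the dim arrays raised to the dimmest level above background). The ligand order was reversed between the genotypes in each culture (as measured, -1.93 ± 0.21 and 3.54 ± 0.21, SE; genotype difference -5.47 ± 0.29, adjusted p = 7.23e-15). The Osmr KO difference alone had an adjusted p of 0.38 with culture left out. Tnfsf11 read 10.47, 9.96 and 10.42 with mOSM in Osmr WT cultures, above all 6 LIFR ligand arrays at 7.49 to 8.19, and its genotype difference was -3.54 ± 0.36 (SE; adjusted p = 2.94e-09). Isg15 and Gbp2 differed otherwise: in Osmr WT cultures mOSM and the LIFR ligands gave 0.78 ± 0.33 and 0.14 ± 0.40 (SE), neither passing, and the rise over control with mOSM there was 3.91 ± 0.38 and 3.10 ± 0.46 (SE). Il6, not above background on any ligand array of the Osmr KO cultures at 6 h, read 8.24, 6.66 and 8.52 with mOSM in Osmr WT cultures.

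**Figure D5:**
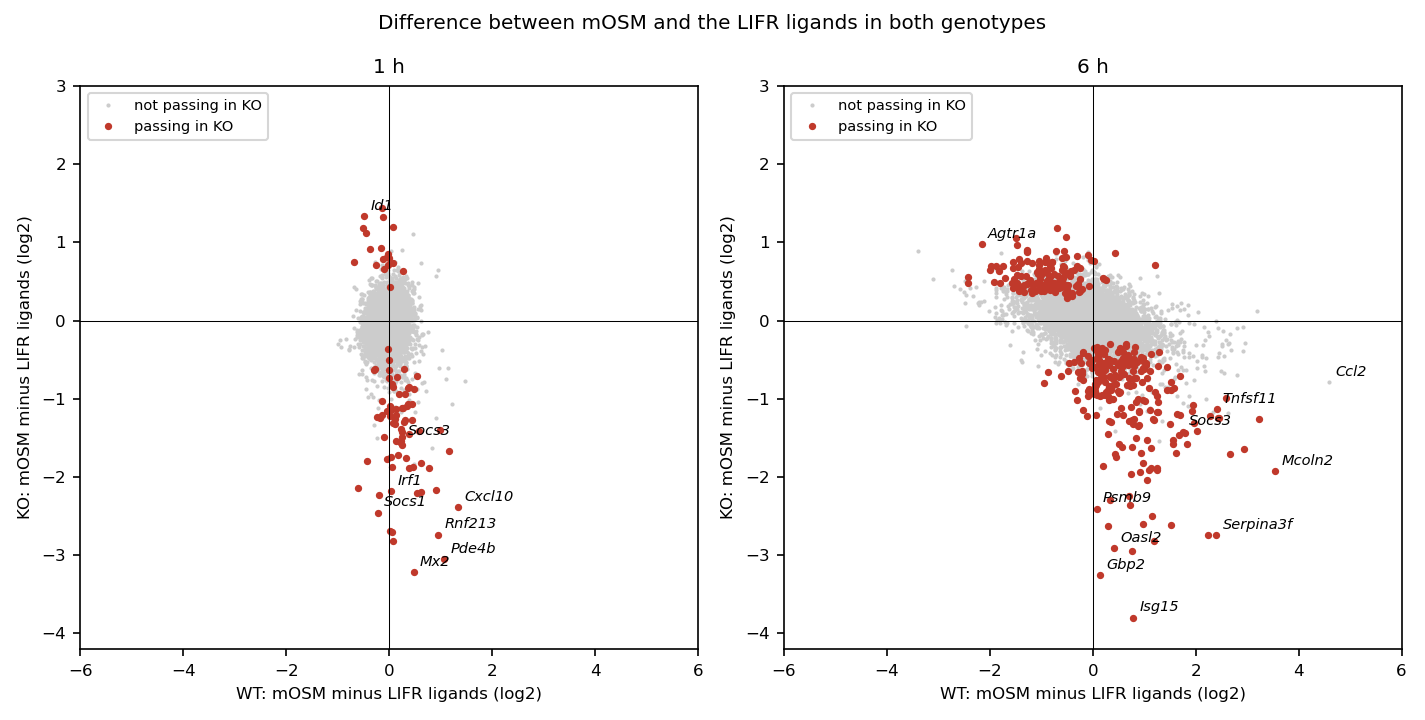
Difference between mOSM and the mean of hOSM and mLIF (log2) in Osmr WT (x axis) and Osmr KO cultures (y axis) at 1 h and 6 h; each point is 1 of 10739 genes, red where the Osmr KO difference passed the test. At 6 h, 130 of the 237 genes lower in Osmr KO cultures were called higher in Osmr WT cultures, toward the lower right.

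Upstream sequences were searched for the motifs named above, on both strands, in the 250 bases before each start site listed by RefSeq. Each gene was counted once, with a match before any of its listed start sites. The GAS motif was found for 13 of 57 genes lower at 1 h that had a sequence (22.8%) and 25 of 192 lower at 6 h (13%). It was found for 631 of the 8676 tested genes with a sequence (7.27%) and 8.13% of all 27025 genes with a listed promoter. The ISRE core was found for 10 of 57 (17.5%) and 27 of 192 (14.1%), beside 3.33% of tested genes and 3.46% of all genes with a listed promoter. Among genes that were higher, the GAS motif was found for 0 of 16 at 1 h and 3 of 115 at 6 h (2.61%), and the ISRE core for 2 of 16 and 6 of 115 (5.22%). The first capitals in Socs3 begin at position -154 from the start site, in Irf1 at -90, in Isg15 at -78 and in Gbp3 at -45. A letter match describes the sequence and says nothing of binding.

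One culture stood apart. The replicate 3 culture of Osmr KO cells had a mean of 60.7 on the first principal component (29.6% of the variance), where the other 5 cultures lay between -17.7 and -0.1, and 649 genes were over 2-fold higher and 603 over 2-fold lower in it than in the other Osmr KO cultures. Its chondrocyte markers were higher by a median of 2.11, though Comp was lower, with a mean of 10.06 beside 12.99 and 13.66 in replicates 1 and 2. Its muscle markers, of which 2 were tested, differed by a median of -1.97. The median was -0.95 for its adipogenic and lipid storage genes and 0.94 for its macrophage markers. Without this culture 93 genes passed at 1 h, 69 of them shared with the full set, and 269 at 6 h, 215 shared. Among markers of other cells, the macrophage and osteoclast list gave 1 call of 7 tested at both times (Cd14, lower), beside 0.866% (1 h) and 3.6% (6 h) of all genes. The summed brightness of its 13 members with a probe was 8422 to 12488 with mOSM and 8564 to 12038 with the LIFR ligands at 1 h, and 8235 to 11692 and 9484 to 11101 at 6 h; Ptprc, Itgam and Acp5 were above background on 0 of 18 arrays. The muscle list gave 1 call of 2 tested at 6 h (Acta1, higher by 0.83 ± 0.23, SE; adjusted p = 0.0346), lost without the replicate 2 or the replicate 3 culture, while the summed brightness of its 7 members with a probe overlapped there, at 211 to 620 with mOSM and 204 to 679 with the LIFR ligands. The summed brightness of the 12 osteocyte genes at 6 h was 18129 to 18726 with mOSM and 21526 to 24513 with the LIFR ligands, without overlap. Untreated Osmr KO cultures at 6 h gave 13276 to 19046, a range that holds the mOSM values. Pdpn was the brightest member, with a mean log2 level of 13.61 on the 18 arrays, followed by Cd44 at 11.24. The part of this sum in the other results was not tested. Lymphocyte markers were above background on 0 arrays, and the endothelial markers Pecam1, Cdh5 and Vwf likewise. In cultures measured in bulk, fewer responding cells and less RNA per cell cannot be told apart.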

How the data were processed

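RNA from 48 samples (16 groups of 3) was hybridised to mouse bead arrays, 6 arrays on each of 8 beadchips. Per the file headers and the submitters' processing notes (BeadStudio, limma), the authors deposited a bead summary intensity and a detection p-value per probe, and a table of normalised log2 values. That log2 table was used as deposited. Normalising the deposited intensities with limma's neqc (offset 16) gave values within 0.0338 of it. Each array had 14231 to 16767 probes above background at the deposited detection p-value of 0.01, and a median intensity of 116.3 to 169.8; the number of arrays limits the precision. The genome build was not given in the sources used here.

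Probes with 1 gene symbol (34885 of 45281) were kept if above background on at least 3 of the 48 arrays, and the brightest represented its gene, which left 10739 genes. limma 3.58.1 (R 4.3.3) was fitted to all 48 arrays with 16 group means and the culture (genotype and replicate number, 6 cultures) as a block, leaving 28 residual degrees of freedom. The contrast was mOSM minus the mean of hOSM and mLIF, and p-values were adjusted by Benjamini-Hochberg over all genes, with 0.05 as the threshold. The block follows the pairing by replicate number in the labels. Same-number Osmr KO arrays had a mean correlation of 0.70 (lowest 0.30, 45 pairs) in their deviations from group means, those of other numbers -0.30. The second value follows from the first, because deviations within a group of 3 sum to 0. Both values include the replicate 3 culture, which stood apart. The fit was tested on simulated data. Alternatives changed the block, normalisation, filter, probes, arrays and replicates.

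Genes were named by rule: fixed regulators, the 10 largest changes each way with all 3 cultures agreeing, up to 4 members of each list, and the 6 largest of each interaction. The comparison and all lists (356 genes) were chosen with earlier results of these data known.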

Additional observations from a re-analysis of the deposited data

Results flagged for a closer look

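These results stand out because the contrast between mOSM and the LIFR ligands differed between 2 settings by a test of that difference itself (limma, culture as a block). Values are log2 differences of differences, and no explanation is weighed.

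Between 1 h and 6 h in Osmr KO cultures, 53 genes changed. Among the named genes the difference moved up for Rnf213 (2.65), Pde4b (2.64), Trim35 (2.15) and Irf1 (1.68). It moved down for Mndal (-2.56), Xdh (-2.52), Oasl2 (-2.25) and Id1 (-1.27). With culture left out of the fit, Pde4b, Trim35, Xdh, Oasl2 and Id1 no longer passed.

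Between genotypes (Osmr KO minus Osmr WT) 63 genes differed at 1 h. The named genes below 0 were Pde4b (-4.12), Cxcl10 (-3.72), Mx2 (-3.70), Rnf213 (-3.68), Cxcl1 (-3.07), Ccl7 (-2.89), Ccl2 (-2.75), Irf1 (-2.22), Junb (-2.15) and Socs3 (-1.77). Those above 0 were Id1 (1.83) and Cebpd (0.87). With culture left out of the fit Cxcl10, Cxcl1, Ccl7, Ccl2, Junb, Socs3 and Cebpd no longer passed. In Osmr KO cultures the other probe of Cebpd gave -1.10 at 1 h (adjusted p = 0.00144) and the one used 0.34 (adjusted p = 0.55), so its direction depends on the probe.

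At 6 h 3636 genes differed between genotypes. The inflammatory and secreted group gave -5.38 for Ccl2, -5.14 for Serpina3f, -4.58 for Isg15, -4.58 for Ifi205, -4.39 for Ccl7, -3.54 for Tnfsf11, -2.86 for Serpina3n and -2.84 for Il6. Signalling and transcription genes gave -3.16 for Socs3, -2.83 for Junb, -2.59 for Fos, -2.39 for Egr1, -2.31 for Cish, -2.16 for Bcl3, -1.12 for Cebpb, -0.99 for Stat3 and -0.93 for Irf1. Receptor chains gave -4.50 for Il4ra, -2.03 for Il6st and -1.45 for Osmr, the deleted gene, which did not pass with culture left out (adjusted p = 0.0686). Mcoln2 gave -5.47 and AA467197 -4.98. The regulators of fat and bone cell formation, Pparg and Sp7, gave 2.09 and 2.05.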

How the results depend on the processing

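No gene called in the named results reversed under any alternative tried, but several alternatives could not change a sign. A changed or omitted block and a fit on fewer groups left the estimate the same, and the fit of every probe read the same probe. Leaving out 1 culture could not reverse a difference with 1 sign in all 3 cultures. That held for all 74 lower and 19 higher genes at 1 h, and for 235 of 237 and 148 of 150 at 6 h. For the counts of genes passing, the culture pairing mattered most. Without the replicate block the difference passed for 33 genes at 1 h and 48 at 6 h, its change with time for 5, and the genotype difference for 19 and 1801. Also without it, mOSM against hOSM and mLIF gave 16 and 17 at 1 h and 20 and 20 at 6 h, hOSM and mLIF against control 43 and 46 at 1 h and 89 and 100 at 6 h, and mOSM against control 0 at 6 h. Of 112 called named results 65 were lost without the block; of 106, 21 with a random block, 21 with a beadchip term, 22 under median scaling, 10 without background correction and 0 with a repeat of the normalisation.

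Other counts that moved by over 1.5 times were, for the difference at 1 h, 162 with every probe and 60 against mLIF alone. At 6 h they were 232 with a random block, 230 under median scaling, 212 with the 18 arrays alone, 179 against hOSM alone and 250 against mLIF alone. The time change gave 34, 81, 30 and 26 with a random block, every probe, 18 arrays and 24 Osmr KO arrays. The genotype difference gave 106 with every probe at 1 h and 2191 under median scaling at 6 h. Each cause was not tested. Without 1 Osmr KO culture the STAT3 list held 0 to 4 lower genes at 6 h in place of 5.

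Leaving out 1 culture or array gave 45 to 99 genes at 1 h and 133 to 454 at 6 h, 11 to 106 for the time change, and 33 to 74 and 2832 to 3707 for the genotype difference. Leaving out 1 Osmr KO culture gave, against hOSM and mLIF, 16 to 64 and 25 to 68 at 1 h, and 50 to 129 and 80 to 179 at 6 h. Against control, hOSM and mLIF gave 61 to 106 and 66 to 99 at 1 h and 337 to 508 and 440 to 577 at 6 h, and mOSM 0 to 7 at 6 h.

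For genes that LIFR ligands raised in Osmr WT cells, the median difference was -0.49 without background correction at 1 h, and -0.58 under median scaling and -0.33 without correction at 6 h. For those lowered it was 0.27 and 0.28 at 1 h, and 0.19 and 0.23 at 6 h (0.34 with a beadchip term). Genes higher with mOSM in Osmr WT cells at 6 h gave -0.25 and -0.084, and those lower 0.0059 and 0.098. Leaving out 1 Osmr KO culture gave -0.85 to -0.73, 0.35 to 0.49, -0.48 to -0.45, 0.32 to 0.33, -0.15 to -0.12 and 0.12 to 0.14 for the 6 medians.

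Genes that did not pass could change sign. With a beadchip term Lifr, Tnfrsf11b and Pparg gave -0.020, -0.13 and -0.11 at 1 h and Cebpd -0.052 at 6 h. Median scaling gave -0.13, -0.12, -0.11 and -0.10 for the same genes, -0.067 for Sp7 at 1 h and -0.078 for Id1 at 6 h. Against hOSM alone Tnfrsf11b gave -0.017 at 1 h and Cebpd -0.031 at 6 h, and against mLIF alone Alpl gave 0.035 at 1 h, and Egr1 0.050 and Bglap 0.085 at 6 h. Leaving out 1 culture or array gave, at 1 h, Osmr -0.31 to 0.17, Lifr -0.16 to 0.21, Tnfrsf11b -0.048 to 0.20, Sp7 -0.21 to 0.30, Bglap -0.28 to 0.038, Col1a1 -0.19 to 0.021 and Pparg -0.15 to 0.25. At 6 h it gave Cebpd -0.056 to 0.13, Egr1 -0.33 to 0.41, Id1 -0.11 to 0.27, Ccl2 -1.45 to 0.22, Tnfrsf11b -0.32 to 0.11, Bglap -0.80 to 0.0050, Alpl -0.19 to 0.22 and Col1a1 -0.23 to 0.0048.

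With 3 cultures a group, and probes near background compressed toward it, small differences and dim genes are measured least well.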
